A study of Mus musculus with 12 samples.

Results

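Integrins are cell surface receptors built from 1 alpha and 1 beta chain, and laminins are basement membrane proteins built from an alpha, a beta and a gamma chain. The genes examined here were those whose symbol starts with Itga or Itgb, or with Lama, Lamb or Lamc and a digit. There were 41 of them, of 21887 protein-coding genes in the RefSeq table for the build. They comprised 18 integrin alpha chains, 9 integrin beta chains, 10 laminin chains and 4 genes that the symbols catch but that encode no integrin chain. At least 1 peak of the deposited Meis1 and Hoxb13 lists was assigned to 32 of the 41 genes, with 122 of 52818 peaks in all.

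The lists came from chromatin immunoprecipitation and sequencing of heart ventricles at postnatal day 15, from the outbred mouse strain CD-1. There were 3 libraries precipitated with a Meis1 antibody (Santa Cruz), 3 precipitated with a Hoxb13 antibody (GeneTex), and 3 input libraries for each, made without antibody. Per the protocol the sheared chromatin of each of 3 hearts was divided between the antibodies and the lists then share their hearts, although the titles number the Meis1 and Hoxb13 libraries apart. No genotype or treatment was labelled, and the ventricle was used whole, so muscle, fibroblast, endothelial and other nuclei contributed together. A peak strength in such tissue cannot tell a larger share of bound cells from more binding per cell. The lists hold no expression values, so the tissue could not be checked against marker genes. Each list covers 3 libraries with no value per library, so no SD, no interval between hearts and no test could be given, and read depth was unknown. Most counts below are set beside the same count over all protein-coding genes or over the whole list. The word strength stands for the authors' deposited signal value of a peak, whose scale the files do not name, and it is used only to rank peaks within a list.

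Integrins link the matrix outside a cell to actin inside it through the short tail of the beta chain, which binds talin, kindlin and the kinase complex around Ilk. In heart muscle the beta1 chain (Itgb1) pairs with alpha7 (Itga7) and related chains at costameres and cell ends, where it holds laminin of the basement membrane. Meis1 is a homeodomain protein of the TALE class whose core recognition sequence is TGACAG, and Hoxb13 is a posterior Hox protein that binds TTTATTG, read as CAATAAA on the other strand.

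Sequence was at hand for promoters. RefSeq promoter windows (GRCm38.p6, the assembly of mm10) were matched for 26 of the 41 genes, with 29 windows. In 5 of the windows a peak lay on the 250 bases before the start site, and these are shown because they are the member sequences under a peak that can be read here. Capitals mark TGACAG or its reverse complement CTGTCA, and each line runs 5′ to 3′ on the strand of the gene. The Itgb6 window (chr2:60722604-60722853, minus strand) lies under a Meis1 peak that covers 209 of its 250 bases. The other windows lie under Hoxb13 peaks, which cover 180 bases at Itga5 (chr15:103366792-103367041, minus strand), 92 bases at Itgb1 (chr8:128685404-128685653, plus strand), 118 bases at Itgb5 (chr16:33829415-33829664, plus strand) and all 250 bases at Itgb3bp (chr4:99829159-99829408, minus strand).
Itgb6: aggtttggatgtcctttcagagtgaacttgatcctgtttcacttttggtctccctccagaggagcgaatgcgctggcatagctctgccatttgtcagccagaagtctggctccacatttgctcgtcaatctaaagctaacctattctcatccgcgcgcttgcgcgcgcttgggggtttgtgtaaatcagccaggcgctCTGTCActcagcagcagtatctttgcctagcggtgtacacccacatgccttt
Itga5: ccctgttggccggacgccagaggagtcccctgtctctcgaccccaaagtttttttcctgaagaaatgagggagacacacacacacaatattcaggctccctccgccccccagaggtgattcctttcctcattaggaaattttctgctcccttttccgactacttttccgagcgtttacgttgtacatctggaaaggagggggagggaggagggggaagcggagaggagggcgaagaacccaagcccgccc
Itgb1: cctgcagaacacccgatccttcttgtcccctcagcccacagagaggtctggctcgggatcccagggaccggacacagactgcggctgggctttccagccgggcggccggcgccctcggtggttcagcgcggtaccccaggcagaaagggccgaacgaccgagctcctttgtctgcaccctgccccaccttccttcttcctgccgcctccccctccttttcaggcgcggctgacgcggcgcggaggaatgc
Itgb5: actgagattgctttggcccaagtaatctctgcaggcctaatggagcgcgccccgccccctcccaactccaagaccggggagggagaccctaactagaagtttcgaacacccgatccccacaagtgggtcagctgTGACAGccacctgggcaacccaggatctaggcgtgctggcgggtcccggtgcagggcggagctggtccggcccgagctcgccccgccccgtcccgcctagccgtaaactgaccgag
Itgb3bp: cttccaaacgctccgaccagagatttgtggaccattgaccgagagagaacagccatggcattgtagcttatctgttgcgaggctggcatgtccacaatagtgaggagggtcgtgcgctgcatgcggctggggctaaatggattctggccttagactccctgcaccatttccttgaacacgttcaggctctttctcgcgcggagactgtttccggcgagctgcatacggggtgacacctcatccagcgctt

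In the Itgb6 promoter CTGTCA begins 52 bases before the start site, on chromosome 2 from 60722650 to 60722655, and its nearest base lies 16 bp from the summit of the Meis1 peak. In the Itgb5 promoter TGACAG begins 116 bases before the start site, inside the Hoxb13 peak but 191 bp from its summit. The letters TGACAG, searched on both strands, were found in 6 of the 29 member windows, against 15.4% of the 21263 windows of all protein-coding genes. The other 4 of these windows, at Itga11, Itga2b, Itgb2l and an internal start of Itgb6, lay under no peak. CAATAAA, searched on both strands, was in 0 of 29 windows (3.65% of all windows), and TCGTAAA, a Hoxb13 recognition sequence that holds a CG, was in 0 of 29 (0.475% of all). A match describes the letters alone, and these windows cover few of the peaks.

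Meis1 peaks were assigned to 29 of the 41 genes (70.7%), where 38.2% of all protein-coding genes had a Meis1 peak. Hoxb13 peaks were assigned to 20 (48.8%), where 44.4% of all protein-coding genes had one. The order of the factors depends on the assignment. Counting instead any peak in the RefSeq gene body or within 5 kb of it, 25 of the 41 genes had a Meis1 peak (33.3% of all protein-coding genes) and 27 had a Hoxb13 peak (48.4% of all). Peaks of both factors were assigned to 17 (41.5%, against 23.9% of all genes), Meis1 alone to 12, Hoxb13 alone to 3 (Itgb1bp1, Lama1 and Lamb2) and neither to 9. The counts for Meis1 alone, Hoxb13 alone and neither were not set beside a share of all genes, and nothing is read from them. The 9 genes without an assigned peak were Itga10, Itga11, Itgae, Itgal, Itgam, Itgax, Itgb4, Itgb7 and Lamc3. The 41 genes were long, with a median of 61.8 kb against 17.2 kb for all protein-coding genes. The 29 genes with a Meis1 peak had a median length of 64.5 kb and the 12 without had 36.3 kb. The part that length plays in these counts was not tested.

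**Figure D1:**
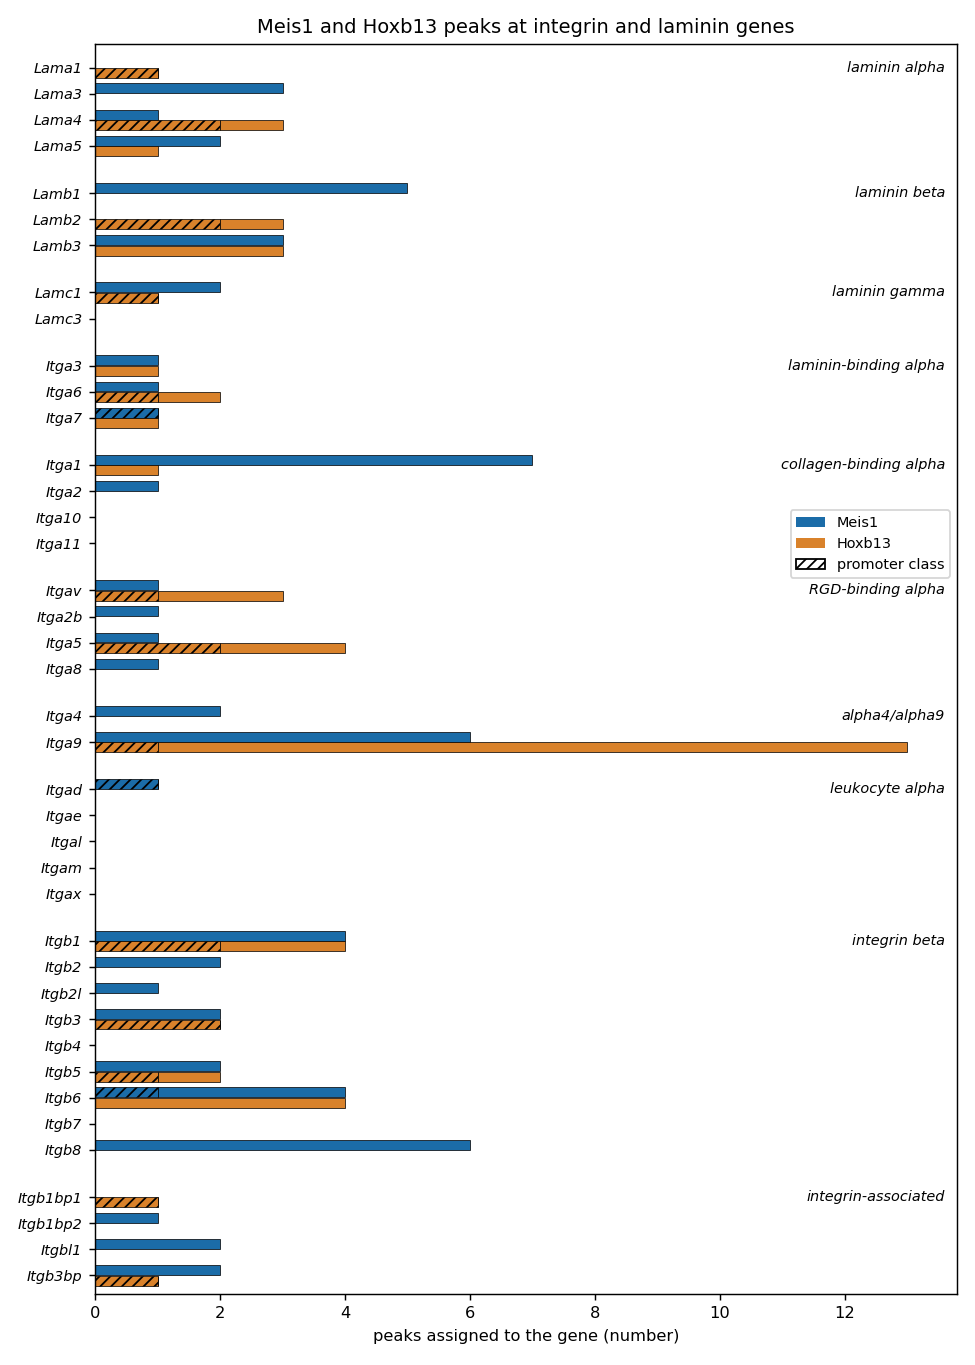
Number of Meis1 (blue) and Hoxb13 (orange) peaks assigned to 40 of the 41 genes, grouped by role, with hatching for peaks of the promoter class. Itga9 holds 6 Meis1 and 13 Hoxb13 peaks, Itga1 holds 7 Meis1 peaks, and 9 genes hold none.

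The factors took different positions at these genes. Of the 69 Meis1 peaks 31 were intronic, 26 intergenic, 8 exonic, 3 in the promoter class and 1 in a 3′ UTR. Of the 53 Hoxb13 peaks 22 were intronic, 18 in the promoter class, 8 intergenic, 3 exonic, 1 in a 5′ UTR and 1 in a 3′ UTR. The promoter class held 4.35% of the member Meis1 peaks (exact binomial 95% interval 0.906 to 12.2, counting error only), and 6.73% of the whole Meis1 list. It held 33.96% of the member Hoxb13 peaks (21.5 to 48.3), and 40.3% of the whole Hoxb13 list. Both whole-list shares lie inside the members' intervals. The intervals count each peak as independent, although peaks cluster in genes and 13 of the 53 Hoxb13 peaks were assigned to Itga9. Introns held 44.9% of the member Meis1 peaks (32.9 to 57.4) and 33.4% of the Meis1 list, a share inside that interval. They held 41.5% of the member Hoxb13 peaks (28.1 to 55.9) and 23.4% of the Hoxb13 list. Intron 15 of Itga9 alone held 8 of the 22 intronic Hoxb13 peaks, and the intron share without Itga9 was not computed. Exons held 11.6% of the member Meis1 peaks (5.14 to 21.6) and 2.59% of the Meis1 list, among them peaks assigned to Itga2, Itga2b, Lama3, Lamb1 and Lamb3. Exons held 5.66% of the member Hoxb13 peaks and 4.69% of the Hoxb13 list.

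The median Meis1 peak of these genes lay 29.2 kb from a start site, against 58.2 kb over the Meis1 list. Within 10 kb of a start site the shares were near each other, at 18.8% of the member Meis1 peaks and 19.8% of the Meis1 list. The median Hoxb13 peak of these genes lay 13.1 kb away, against 4.55 kb over the Hoxb13 list. The Hoxb13 value rests on Itga9, which holds 13 of the 53 peaks. Without Itga9, a comparison added after the data were seen, the median was 30.3 kb for Meis1 and 2.14 kb for Hoxb13, which is below the 4.55 kb of the Hoxb13 list. The promoter class then held 42.5% of the 40 remaining Hoxb13 peaks.

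**Figure D2:**
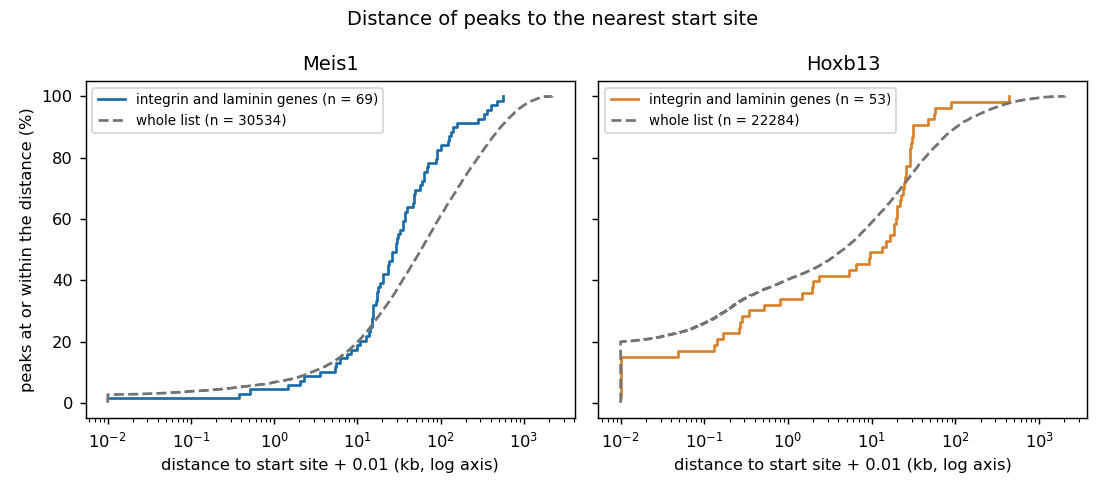
Share of peaks (%) at or within a given distance of a start site (kb, log axis, 0.01 kb added), for integrin and laminin genes (solid) and the whole list (dashed), with Meis1 on the left and Hoxb13 on the right. At 10 kb the curves reach 18.8% for the member Meis1 peaks and 19.8% for the Meis1 list, and 49.1% for the member Hoxb13 peaks and 58.9% for the Hoxb13 list. At 100 kb the curves reach 82.6% for the member Meis1 peaks and 61.0% for the Meis1 list, and 98.1% for the member Hoxb13 peaks and 89.7% for the Hoxb13 list.

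Among the 10 laminin genes a Meis1 promoter peak was listed at 0 and a Hoxb13 promoter peak at 4, where 8.16% and 30.7% of all protein-coding genes had one. These counts are near those shares, and nothing is read from them. Laminin alpha chains carry the globular domains that integrins bind. Lama4, the alpha chain of vessel and muscle basement membranes, had a Meis1 peak of strength 18.7 at 20.3 kb upstream. Its Hoxb13 promoter peaks had strengths of 18.3 and 25.3, with summits 86 bp before and 467 bp after its 5′ end, and a further Hoxb13 peak of 17.9 lay in intron 1. Lama1, an alpha chain of early embryonic basement membranes, had 1 Hoxb13 promoter peak (strength 18.4) and no Meis1 peak. Lama3, the alpha chain of epithelial laminin, had 3 Meis1 peaks and no Hoxb13 peak. The strongest of these (strength 61.1, rank 1850 of 30534) lay in intron 2, 37.7 kb inside the gene, and the others had strengths of 16.3 in exon 44 and 17.8 in intron 44. Lama5 had Meis1 peaks in introns 3 and 6 (26.0 and 28.2) and a Hoxb13 peak of 21.3 placed 1.46 kb upstream, just outside the promoter class.

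Laminin beta and gamma chains join an alpha chain through a coiled coil. Lamb1, the widely expressed beta chain, had 5 Meis1 peaks and no Hoxb13 peak. Of these 3 lay in the gene, with strength 38.7 in exon 9, 23.5 in intron 12 and 25.1 in exon 15, and the other 2 (20.2 and 17.4) lay 24.2 and 10.0 kb upstream. Lamb2, the beta chain of the neuromuscular junction and kidney filter, had 3 Hoxb13 peaks and no Meis1 peak. Its Hoxb13 strengths were 19.7 and 19.5 in the promoter class and 19.0 in exon 8, all in the weaker 50% of the list. Lamc1, the gamma chain of most laminins, had 2 Meis1 peaks in intron 1, of 19.7 at 39.6 kb and 23.4 at 47.3 kb downstream of the start, and a Hoxb13 promoter peak of strength 31.9, rank 3333 of 22284. Lamc3 had no peak.

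Lamb3 (gene 16780), the beta chain of epithelial laminin, held the strongest Hoxb13 peak of all 41 genes. Its strength of 80.8 ranked 264 of 22284, the strongest 1.18% of the list, and it was only 99 bp wide where 98.8% of Hoxb13 peaks were 396 bp. It lay in intron 7 on chromosome 1 from 193317131 to 193317229 (mm10). A Meis1 peak from 193317118 to 193317401 (strength 38.5, rank 3658 of 30534) contained it whole, with summits 60 bp apart, and another Meis1 peak of 43.9 lay before it in the same intron. The other Lamb3 peaks were a Meis1 peak of 16.05 in exon 21 and Hoxb13 peaks of 18.4 in exon 16 and 25.5 in intron 18. Across the 3 laminin groups, 7 of 10 genes had a Meis1 peak (38.2% of all protein-coding genes) and 7 of 10 a Hoxb13 peak (44.4% of all).

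The 3 chains grouped here as laminin-binding alpha chains were each assigned peaks of both factors, where 23.9% of all protein-coding genes had both. With 3 genes nothing is read from this count. Itga3 (gene 16400), which pairs with beta1 in epithelia, held the strongest Meis1 peak of the 41 genes, with strength 156 and rank 374 of 30534 (strongest 1.22%). It lay in intron 2 on chromosome 11 from 95067547 to 95067722, 1.48 kb downstream of the start of an annotated transcript and 9.21 kb inside the gene. The Hoxb13 peak of Itga3 (strength 22.0) lay in intron 1 of an annotated transcript and did not overlap the Meis1 peak. Itga6, the partner of beta4 in hemidesmosomes and of beta1 elsewhere, had a Meis1 peak of 15.6 (rank 30016 of 30534), a Hoxb13 promoter peak of 25.1 on its start site and a Hoxb13 peak of 19.2 placed 29.6 kb upstream. Itga7, the main alpha chain of muscle laminin receptors, had a Meis1 peak of 17.7 and a Hoxb13 peak of 19.6, both in the weaker 50% of their lists. The Itga7 Meis1 peak is of the promoter class, but of an internal transcript start, and its summit lies 19.5 kb inside the gene.

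Collagen-binding chains had Meis1 peaks at a distance. Itga1 had 7 Meis1 peaks, all intergenic, from 68.9 to 570 kb upstream and of strength 15.9 to 19.2, and 1 Hoxb13 peak of 18.4 at 436 kb upstream. All of these assigned peaks lay far from the gene, and the Meis1 strengths ranked between 14006 and 27917 of 30534. The body of Itga1 held Hoxb13 peaks of 22.2, 30.6 and 23.9 assigned to Pelo. The peak of 23.9 runs from 115100673 to 115101068, near the RefSeq 5′ end of Itga1 at 115101964. Itga2 had 1 Meis1 peak (strength 45.8, rank 2864), but its position is an exon of Itga1, chromosome 13 from 115002243 to 115002526, 70.2 kb upstream of the Itga2 start used by the authors. Itga10 and Itga11 had no peak.

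Among chains that bind the RGD motif of fibronectin and vitronectin, Itga5 and Itgav had Hoxb13 peaks at the promoter. Itga5, the fibronectin receptor chain, had a Meis1 peak of 21.7 in intron 1 and 4 Hoxb13 peaks. The Hoxb13 strengths were 24.1 and 19.1 at the start site, 20.1 in the 5′ UTR class 6.55 kb downstream, and 35.1 at 16.7 kb upstream (rank 2476). The Meis1 peak lay 20 bp from the Hoxb13 peak of the 5′ UTR class, with summits 360 bp apart. Itgav, the alphav chain of vitronectin receptors, had a Meis1 peak of 18.2 and Hoxb13 peaks of 22.5, 21.1 and 19.8. Its Hoxb13 promoter peak (21.1) is 2.41 kb inside the RefSeq gene, at a later transcript start. Itga2b, the platelet chain, was assigned only a Meis1 peak, of 33.3 in exon 28. Itga8 was assigned only a Meis1 peak, of 21.2 at 23.5 kb upstream. The body of Itga8 held a Hoxb13 peak of 19.1 assigned to E030013I19Rik.

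Among the 5 leukocyte alpha chains, which mark cells other than muscle, 1 was assigned a Meis1 peak and 0 a Hoxb13 peak (38.2% and 44.4% of all protein-coding genes). With 5 genes nothing is read from these counts. Itgal, Itgam, Itgax and Itgae were assigned no peak. Itgad had a Meis1 peak of strength 25.6 in the promoter class, but of a transcript start in the authors' annotation that lies away from the RefSeq gene, since the summit is 20.0 kb before the RefSeq 5′ end. The body of Itgad also held Hoxb13 peaks of 42.5 and 22.2, which the authors assigned to 4931431B13Rik. Itgb2, the beta chain that pairs with Itgal, Itgam, Itgax and Itgad, had 2 Meis1 peaks (31.0 at 3.50 kb upstream and 16.8 in intron 8) and no Hoxb13 peak.

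Itga9 (gene 104099) held the most peaks of the 41 genes. It encodes the alpha9 chain, which pairs with beta1 and binds tenascin C and other ligands, and is close in sequence to alpha4. It held 6 Meis1 peaks, a number reached by 945 of the 8362 protein-coding genes with a Meis1 peak (11.3%), and 13 Hoxb13 peaks, reached by 52 of the 9712 with a Hoxb13 peak (0.535%). Itga4, the sister chain, was assigned 2 Meis1 peaks (19.2 and 17.6) and no Hoxb13 peak. The body of Itga4 also held a Hoxb13 peak of 18.9 and a Meis1 peak of 18.8, both assigned to Cerkl. Itga9 spans 294 kb, the second longest of the 41, and Itgbl1 is longer at 319 kb. Itgbl1 was assigned 2 Meis1 peaks and no Hoxb13 peak, and its body held 4 more Meis1 peaks assigned to 1700024B18Rik.

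Near its start Itga9 had a Meis1 peak of 85.1 (rank 1111 of 30534) at 2.05 kb and a Hoxb13 promoter peak of 20.4 with its summit 702 bp into the gene. The Meis1 peak is the second strongest of the 41 genes and is 76 bp wide, where most Meis1 peaks were 284 bp. Most of the others lay in intron 15, where 4 Meis1 and 8 Hoxb13 peaks fell within 21.1 kb on chromosome 9 from 118721102 to 118742243. These summits lie 115 to 135 kb from the 5′ end, but the deposited distances of 9.41 to 30.2 kb count from an internal transcript start. In order along the gene the Meis1 strengths in the intron were 35.5, 19.8, 17.1 and 27.1. The Hoxb13 strengths were 22.9, 32.2, 37.3, 40.8, 33.7, 20.3, 35.9 and 29.5. None of the 4 Meis1 peaks was among the 10 strongest member Meis1 peaks, and 6 of the 8 Hoxb13 peaks were among the 10 strongest member Hoxb13 peaks. Elsewhere Itga9 had a Meis1 peak of 19.3 in intron 14. Its Hoxb13 peaks outside intron 15 and the promoter had strengths of 20.1 in intron 13, 18.7 in intron 14, 20.3 in intron 17, and 21.7 at 24.7 kb upstream, in the 3′ UTR of Golga4.

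Meis1 and Hoxb13 peaks in this intron lay close together, in 2 cases overlapping and in 3 with a short gap. The Meis1 peak of 35.5 sat between 2 Hoxb13 peaks, with a gap of 19 bp to the one before (37.3) and an overlap of 39 bp with the one after (40.8). The Meis1 peak of 19.8 overlapped the Hoxb13 peak of 33.7 by 223 bp, with summits 117 bp apart. The Meis1 peaks of 17.1 and 27.1 lay between 2 further Hoxb13 peaks, with gaps of 43 bp (35.9) and 19 bp (29.5). Each Meis1 peak of the intron thus lay within 43 bp of a Hoxb13 peak, and in 3 of the 4 cases the nearest Hoxb13 summit was 301 to 383 bp away. How often peaks of the whole lists lie this close was not computed.

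**Figure D3:**
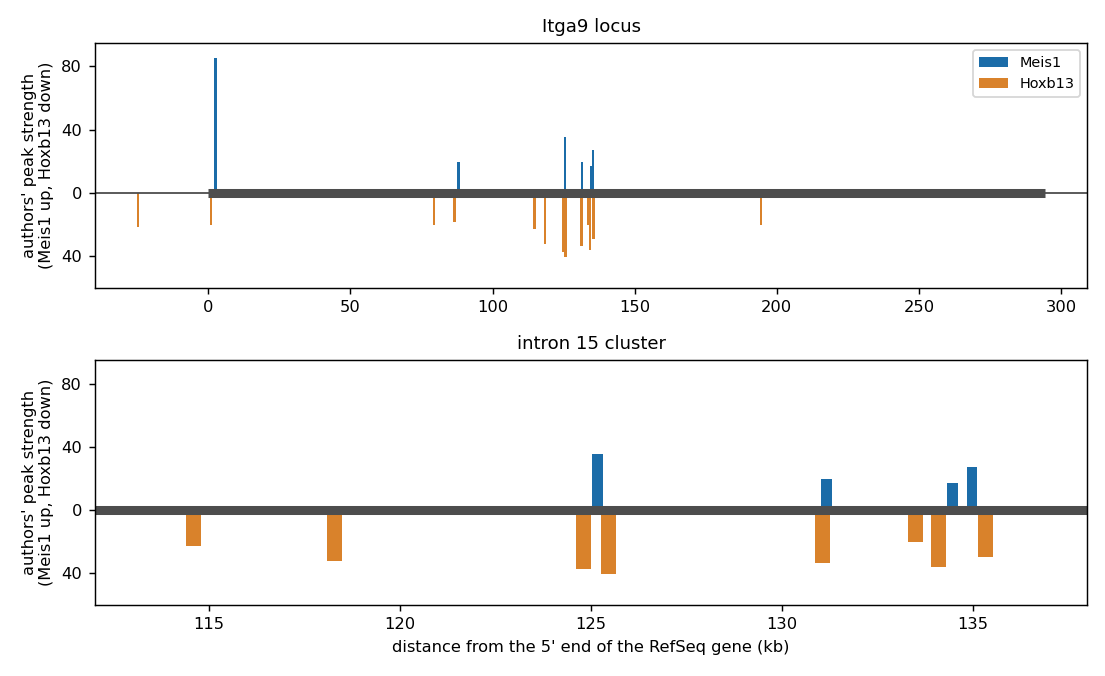
Meis1 peaks (blue, upward) and Hoxb13 peaks (orange, downward) of Itga9 by distance from the 5′ end of the RefSeq gene (kb), with bar height giving the authors' strength and the grey bar the gene. The upper panel shows the whole locus, with the Meis1 peak of 85.1 near the start, and the lower panel the intron 15 cluster of 4 Meis1 and 8 Hoxb13 peaks.

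Among beta chains Itgb1 alone had an overlapping pair. Itgb1 (gene 16412), the partner of most alpha chains in muscle, had 4 Meis1 and 4 Hoxb13 peaks. Its Meis1 peaks had strengths of 46.0 at 5.45 kb upstream, 16.8 at 17.3 kb upstream, and 15.7 and 15.6 far downstream. Those far downstream had summits 172 and 197 kb from the RefSeq 5′ end of Itgb1. Its Hoxb13 peaks had strengths of 24.6 and 33.0 in the promoter class (summits 356 bp before and 451 bp after the 5′ end), 24.9 at 5.34 kb upstream and 20.6 at 30.7 kb upstream. The Meis1 peak of 46.0 (chromosome 8 from 128679926 to 128680209, rank 2842) lay wholly inside the Hoxb13 peak of 24.9 (128679916 to 128680311), with summits 46 bp apart, the closest pair among the 41 genes.

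Itgb6 (gene 16420), the partner of alphav in epithelia, had the only Meis1 peak of the 41 genes at a RefSeq 5′ end. Its strength was 55.2, rank 2161 of 30534, and its summit lay 68 bp before the start, over the promoter sequence shown above. The other Itgb6 peaks were Meis1 peaks of 23.8, 15.6 and 16.05 and Hoxb13 peaks of 23.6, 19.0, 22.1 and 18.3, none of them in the promoter class. Itgb3, the beta chain of platelets and osteoclasts, had 2 Meis1 peaks (16.7 and 16.9) and 2 overlapping Hoxb13 promoter peaks (18.8 and 19.3). The Itgb3 Meis1 summits lay 120 and 155 kb downstream of its RefSeq 5′ end, within the body of Efcab13. Itgb5, a vitronectin receptor chain, had Meis1 peaks of 21.6 and 34.8 in introns 2 and 5, and Hoxb13 peaks of 20.8 on the start site and 19.8 in intron 4. Itgb8, an alphav partner that takes part in activating TGF-beta, had 6 Meis1 peaks and no Hoxb13 peak, with the strongest (80.2, rank 1225) in the 3′ UTR class and the others between 15.7 and 29.0. Itgb4 and Itgb7 were assigned no peak, though a Hoxb13 peak of 19.6 assigned to Zfp740 touched the body of Itgb7. The single Meis1 peak of Itgb2l (16.3) lay in an intron of Igsf5.

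The 4 genes caught by symbol alone encode no integrin chain. Itgb1bp2 encodes melusin, a muscle protein that binds the beta1 tail, and had 1 Meis1 peak of 17.0 and no Hoxb13 peak. Itgb1bp1, which encodes ICAP1, a negative regulator of beta1, had a Hoxb13 promoter peak of 27.3 and no Meis1 peak. Itgb3bp, a centromere protein gene despite its name, had 2 Meis1 peaks of 16.3 and 16.6, and a Hoxb13 promoter peak of 29.4 that also touches the body of Efcab7. Itgbl1, an integrin-like secreted protein gene, had Meis1 peaks of 15.6 and 17.96 in intron 2.

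At promoters, Meis1 was listed at 3 of the 41 genes (7.32%, against 8.16% of all protein-coding genes) and Hoxb13 at 13 (31.7%, against 30.7%). Both shares are near those of all genes. A promoter peak of both was listed at 0 of the 41 genes (exact binomial 95% interval 0 to 8.60%), where 4.7% of all protein-coding genes had both, a share inside that interval. The Meis1 promoter genes were Itga7, Itgad and Itgb6, and those of Hoxb13 were Itga5, Itga6, Itga9, Itgav, Itgb1, Itgb1bp1, Itgb3, Itgb3bp, Itgb5, Lama1, Lama4, Lamb2 and Lamc1. Of the 3 Meis1 promoter peaks 1 had its summit within 1 kb of a RefSeq 5′ end, and of the 18 Hoxb13 promoter peaks 17 had.

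Overlap of the factors, counted as at least 1 bp, was found in 4 pairs of peaks at 3 genes, namely Itgb1, Lamb3 and Itga9 with 2. That is 4 of 69 Meis1 peaks (5.80%, against 5.54% of the Meis1 list) and 4 of 53 Hoxb13 peaks (7.55%, against 7.93% of the Hoxb13 list), shares near those of the whole lists. A further 4 pairs lay apart by 19 to 43 bp, 3 in Itga9 and 1 in Itga5. The share of all peaks with such a gap was not computed, and nothing is read from this count.

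**Figure D4:**
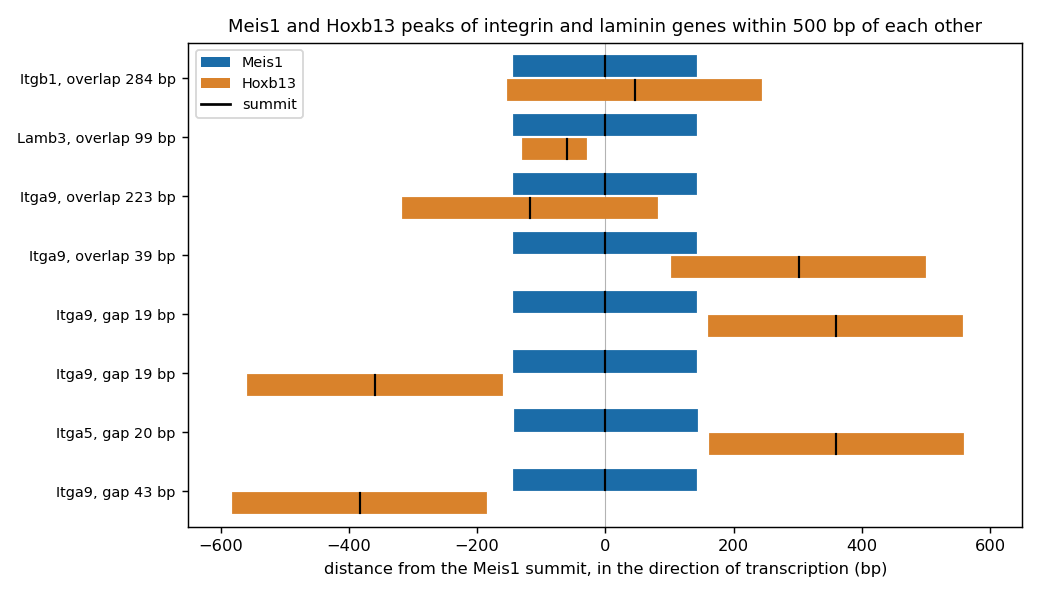
The 8 pairs of Meis1 (blue) and Hoxb13 (orange) peaks at integrin and laminin genes that lie within 500 bp of each other, in bp from the Meis1 summit in the direction of transcription, with black ticks for summits. The summits are 46 bp apart at Itgb1 and 60 bp at Lamb3, and 359 to 383 bp apart in the 4 pairs that do not touch.

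Peak strengths at these genes had medians close to those of their lists. Member Meis1 peaks ran from 15.6 to 156 with a median of 19.2, against a median of 18.7 for the Meis1 list, and 8 of 69 (11.6%) were in the strongest 10%. Member Hoxb13 peaks ran from 17.9 to 80.8 with a median of 21.1, against a median of 21.4 for the Hoxb13 list, and 3 of 53 (5.66%) were in the strongest 10%. The 8 Meis1 peaks belonged to Itga3, Itga9, Itgb8, Lama3, Itgb6, Itgb1, Itga2 and Lamb3, and the 3 Hoxb13 peaks to Lamb3 and Itga9.

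**Figure D5:**
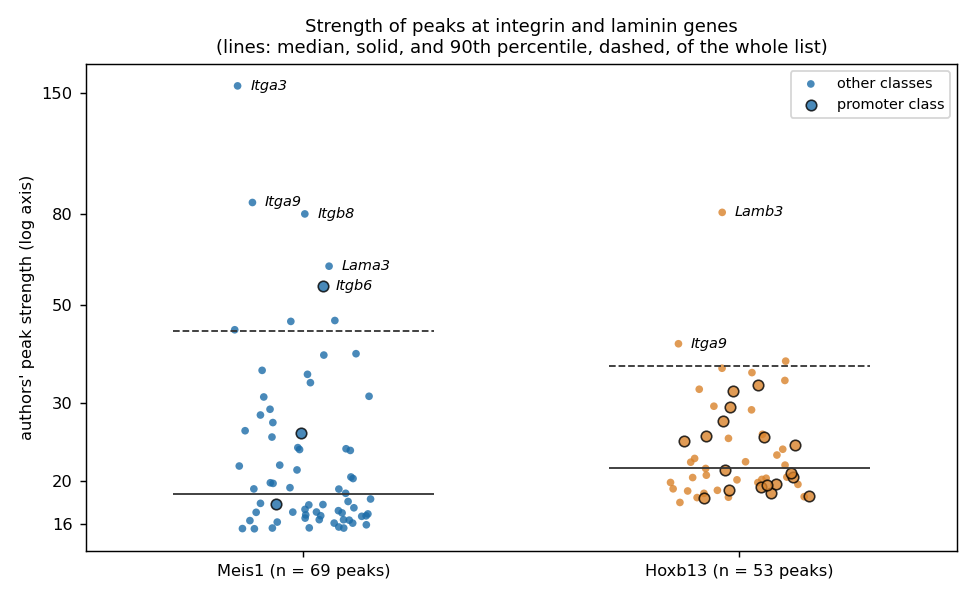
Authors' strength (log axis) of each of the 69 Meis1 and 53 Hoxb13 peaks at integrin and laminin genes, with black rims for the promoter class and lines for the median and 90th percentile of the whole list. Itga3 stands highest among Meis1 peaks at 156 and Lamb3 among Hoxb13 peaks at 80.8.

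Genes that act with these receptors were counted from lists of 35 adaptor and signalling genes and 28 other ligands and basement membrane genes. Both lists were chosen with earlier results of these data known. The part that gene length plays in their counts was not tested. Of the adaptor genes 22 had a Meis1 peak and 31 a Hoxb13 peak, 20 had both, and Fermt3 and Ptk2b had neither. Among all protein-coding genes 38.2% had a Meis1 peak, 44.4% a Hoxb13 peak and 23.9% both. A Meis1 promoter peak was listed at 9 of the 35 and a Hoxb13 promoter peak at 26, with both at 7, where the shares of all protein-coding genes were 8.16%, 30.7% and 4.7%. The 7 genes were Bcar1, Cd47, Kank1, Lims1, Tln2, Tns1 and Tns2. Tln2 encodes the talin of striated muscle and Lims1 encodes PINCH1, a partner of Ilk. At Lims1 the promoter peaks (Meis1 30.2 and Hoxb13 23.1) overlapped by 86 bp, and at Kank1, a talin-binding protein gene, they (23.8 and 21.5) overlapped by 268 bp with summits 72 bp apart. Tns1, a tensin that binds beta tails, held 14 Meis1 and 25 Hoxb13 peaks, with overlapping pairs at the promoter and in intron 4. Overlapping pairs were also listed for Cd47, an integrin-associated membrane protein gene, and in introns of Actn1 and Fyn.

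Of the 28 ligand and basement membrane genes 19 had a Meis1 peak and 20 a Hoxb13 peak, 14 had both, and Fn1, Npnt and Vtn had neither, beside the same 38.2%, 44.4% and 23.9% of all protein-coding genes. A Meis1 promoter peak was listed at 1 of the 28 (Ccn2, a matricellular growth factor gene) and a Hoxb13 promoter peak at 13, with both at Ccn2 (8.16%, 30.7% and 4.7% of all protein-coding genes). Overlapping pairs lay in introns of Col4a1, Col4a2, Hspg2 and Ltbp1. In intron 1 of Hspg2, which encodes perlecan of the basement membrane, 3 pairs overlapped. The strongest, a Meis1 peak of 125 and a Hoxb13 peak of 41.6, shared 33 bp with summits 263 bp apart. The pair of 19.6 and 28.9 shared 247 bp with summits 93 bp apart, and that of 19.0 and 17.9 shared 42 bp with summits 298 bp apart.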

How the data were processed

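Ventricle chromatin of CD-1 mice was precipitated for Meis1 or Hoxb13, and each factor's 3 libraries are summed up in 1 peak list (30534 and 22284 peaks). The submitters' processing notes name mm10, Bowtie2 2.2.3, deepTools 1.6, ChIPseeker and Picard, without their roles. How peaks were called and how libraries were pooled is not given in the sources used here. Each deposited peak carries, from the authors, a signal value, called strength, and a second score, named per the file headers by column number alone. The score was not used. The other deposited columns are position, width, summit offset, annotation class, nearest gene and distance. Peaks of the promoter class reached a distance of 997 bp in the Meis1 list and 999 bp in the Hoxb13 list. Depth is unknown, and the input libraries entered no comparison.

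Peaks were taken by gene symbol, and gene spans came from RefSeq (GRCm38.p6). A gene counted as having a peak if the authors assigned it 1. Overlaps were computed in Python 3.11.15 with pandas 2.3.3, and the overlap code was tested on simulated data. Intervals for shares are exact binomial (scipy 1.17.1). No tests were run. Windows of opposite strands that overlap were reverse complements in 1716 of 1716 cases, so promoter sequence is in gene direction. The genes, the pathway lists and the motifs were chosen with earlier results of these data known. Named with full values are genes with a promoter peak, an overlapping pair, 1 of the 10 strongest member peaks of a list, or the most peaks, with the strengths of their peaks, singly or as a range, and ranks for the stronger ones. Pathway genes are named where peaks of both factors overlap or share a promoter, or, chosen after their values were seen, where neither has a peak. Other members are given by their strengths. Another laminin gene is not reported here, and 1 of the 41 enters the counts but is not described. Alternatives varied the peaks used, the distance limit, the assignment of peaks to genes, the genes included and the overlap required.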

Additional observations from a re-analysis of the deposited data

How the results depend on the processing

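No paired analysis was possible because each list covers 3 libraries with no value per library, and for the same reason no replicate could be left out. Under the alternatives 33 recomputed counts, medians and shares stayed within 1.5 times the reported count or median or within the interval of the reported share. With peaks within 10 kb of a start site, 12 genes had a Meis1 peak and 6 had both factors. In the stronger 50% of each list, 13 genes had a Hoxb13 peak, 9 had both and 7 had a Hoxb13 promoter peak. With promoters taken as within 3 kb, 6 genes had a Meis1 promoter peak. The shares of all protein-coding genes under these 10 kb, stronger 50% and 3 kb limits were not computed. Whether the differences from all genes hold under them was thus not tested. Overlapping pairs numbered 2 at a reciprocal overlap of 50%, 2 with summits within 100 bp and 8 with a gap of at most 500 bp. Chosen after the data were seen, they numbered 2 without Itga9, and 7 with peaks placed by the gene body and 5 kb around it. These 7 include promoter pairs that the authors assigned to the neighbours Pdk2 (beside Itga3) and Cox6a2 (beside Itgad), and a pair assigned to Camk1g. They leave out the Itgb1 pair, which lies more than 5 kb upstream of its gene. The median distance of the Hoxb13 peaks was 2.14 kb without Itga9. Each alternative by its construction changes the peaks, the genes or the rule for a pair. With gene bodies and 5 kb, 25 genes had a Meis1 peak and 27 a Hoxb13 peak, the reverse of the order under the authors' assignment. The lists hold no depth, so a gene without a peak is not shown to be unbound.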

Other observations

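Some peaks inside the bodies of these genes were assigned by the authors to a neighbour with a nearer start site. Of the Meis1 peaks within a member's RefSeq body 41 were assigned to that gene and 12 elsewhere, and of the Hoxb13 peaks 40 and 14. In intron 22 of Lamb3 a Meis1 peak (strength 32.1) and a Hoxb13 peak (26.3) overlapped by 58 bp, and both were assigned to Camk1g. In intron 9 of Itga5 a Meis1 peak (17.7) and a Hoxb13 peak (18.02) lay 4 bp apart, with summits 344 bp apart, and both were assigned to Mir6963. The body of Itga9 held 2 more Meis1 peaks, of 47.0 and 21.1, assigned to Ctdspl. The body of Itga1, which had no peak of its own inside it, held 3 Hoxb13 peaks (22.2, 30.6 and 23.9) assigned to Pelo, 2 of them in the promoter class. The body of Itgbl1 held 4 more Meis1 peaks, of 16.4 to 17.2, and that of Itgb5 2 more, of 18.5 and 35.0. Hoxb13 peaks assigned to neighbours also lay in the bodies of Itga2 (25.0), Itga4 (18.9) and Itga8 (19.1), and at the edge of Itgb7 (19.6).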
